A study of Homo sapiens with 6 samples.

Results

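MYC and the genes of its MAX partner network were read out in OVCAR8, a human ovarian cancer cell line labelled wild type, after 72 h with the solvent DMSO or with 2 nM pladienolide B, an inhibitor of the splicing factor SF3B1. The members are the rows of the deposited gene table named MYC, MYCN, MYCL, MAX, MXD1, MXD3, MXD4, MXI1, MNT and MLX, 10 of the 38637 genes listed. The rule is a list of names, drawn up with earlier results of these data known. PolyA RNA of 3 samples in each group was sequenced, and by the labels both groups differ only in the treatment named. Nothing in the labels says that the 3 samples came from separate cultures, so the p-values measure only the spread between these samples, which may be technical, and the cell line is a single model.

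MYC binds DNA as a dimer with MAX, mostly at E-boxes with the letters CACGTG, and the dimer raises transcription of genes for ribosome assembly, metabolism and cell division. The MXD proteins, MXI1 and MNT compete for MAX and for the same sites, and they bring in SIN3 corepressor complexes. MLX is the MAX-like partner of the glucose-sensing factors MLXIP and MLXIPL, and it also pairs with several of the repressors, so that MYC, MAX and MLX form 1 connected network. MYC is often amplified in ovarian carcinoma.

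The E-box is the site that these proteins share, and it also lies just upstream of some of the network's own genes. RefSeq promoter windows of 300 bases (GRCh38.p14, 250 before and 50 after the start) matched 9 of the 10 members with 12 windows; MYC was not matched. CACGTG, which reads the same on both strands, was present in 3 of these 12 windows and in 7.3% of all 35116 windows. The 3 windows belong to MXD4 and MNT, whose transcripts fell, and to MLX, whose transcript rose, so that the motif accompanied both directions. The 250 bases before each of these 3 starts are printed 5′ to 3′ on the strand of the gene, at chr4:2262110-2262359 (minus strand) for MXD4, chr17:2401061-2401310 (minus strand) for MNT and chr17:42566850-42567099 (plus strand) for MLX, with the E-box in capitals.
MXD4: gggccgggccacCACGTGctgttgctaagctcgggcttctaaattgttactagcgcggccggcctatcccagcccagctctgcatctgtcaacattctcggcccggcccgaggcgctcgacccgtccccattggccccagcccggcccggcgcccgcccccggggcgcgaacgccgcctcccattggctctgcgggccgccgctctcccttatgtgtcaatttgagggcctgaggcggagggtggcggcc
MNT: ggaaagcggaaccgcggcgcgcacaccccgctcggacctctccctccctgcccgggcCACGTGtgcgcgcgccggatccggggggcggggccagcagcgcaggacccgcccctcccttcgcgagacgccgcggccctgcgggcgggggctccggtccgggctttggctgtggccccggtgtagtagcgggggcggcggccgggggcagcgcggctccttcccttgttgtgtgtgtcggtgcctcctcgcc
MLX: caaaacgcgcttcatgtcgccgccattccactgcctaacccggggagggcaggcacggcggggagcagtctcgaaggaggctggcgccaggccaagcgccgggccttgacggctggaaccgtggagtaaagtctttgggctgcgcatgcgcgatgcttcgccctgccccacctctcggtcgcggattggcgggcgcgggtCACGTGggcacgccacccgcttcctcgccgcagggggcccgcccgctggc
The E-box began 238 bases before the start of MXD4, 193 bases before that of MNT and 50 bases before that of MLX. The 3 windows of MXI1, the member that fell most, held no CACGTG.

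The samples held between 22621338 and 26130882 reads on genes, and between 22005 and 22987 genes had at least 1 read. All values are adjusted reads, that is, reads that the authors' processing scaled to a common library size. A level, or a percentage of it left, is thus relative to the other RNA of the library. The amount of RNA per cell was not measured. DMSO sample 2 stood apart from the other DMSO samples, with a chi-square per degree of freedom over genes of 7.34 and 7.25 against them, where DMSO samples 1 and 3 differed by 2.01 and the pladienolide B samples by 3.17 to 4.82. Where leaving it out moved the log2 fold change of a gene that the naming rule picks by more than 0.1, both values are given. The labelled cell type was checked with markers. PAX8, KRT7, KRT8 and KRT18 were high (group means of 4108 to 49900 adjusted reads) and EPCAM was present at 477 ± 31.6 in DMSO (SD, n = 3), whereas the Müllerian and ovarian carcinoma markers WT1, MUC16, CDH1, KRT19 and ESR1 lay between 6.90 and 38.4. Among the leukocyte markers, CD68 was present, at 1146 ± 86.5 in DMSO and 1526 ± 58.0 in pladienolide B (SD, n = 3), while PTPRC, CD3E and LYZ had at most 2 reads in any sample. The leukocyte sum, nearly all of it CD68, was 1127 to 1282 in DMSO and 1513 to 1615 after treatment. The sums of 3 endothelial and 3 fibroblast markers stayed at or below 90.2 and 43.1.

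Of the 9 members that passed the filter on low values, 2 were higher and 6 were lower after pladienolide B, with an adjusted p under 0.05 (limma, Benjamini-Hochberg over 16178 genes). Among all genes tested 47.6% were called, 22.4% as higher and 25.2% as lower. Without DMSO sample 2 the counts were also 2 and 6. MAX and MLX, the dimer partners, rose. MYC and all 5 of its repressor rivals fell. None of the 9 changed by 2-fold or more, and 635 of all 16178 genes did so with a call. The median log2 fold change was -0.39 over the 9 members and 0.00 over all genes tested. The 3 values of each group did not overlap for 7 of the 9, against 55.3% of all genes tested. Less RNA of a gene per cell and fewer cells that express it cannot be told apart in these bulk samples. Nor do reads per gene separate spliced from unspliced or misspliced RNA. Each change under this splicing inhibitor is thus that of a gene's reads as a whole.

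**Figure D1:**
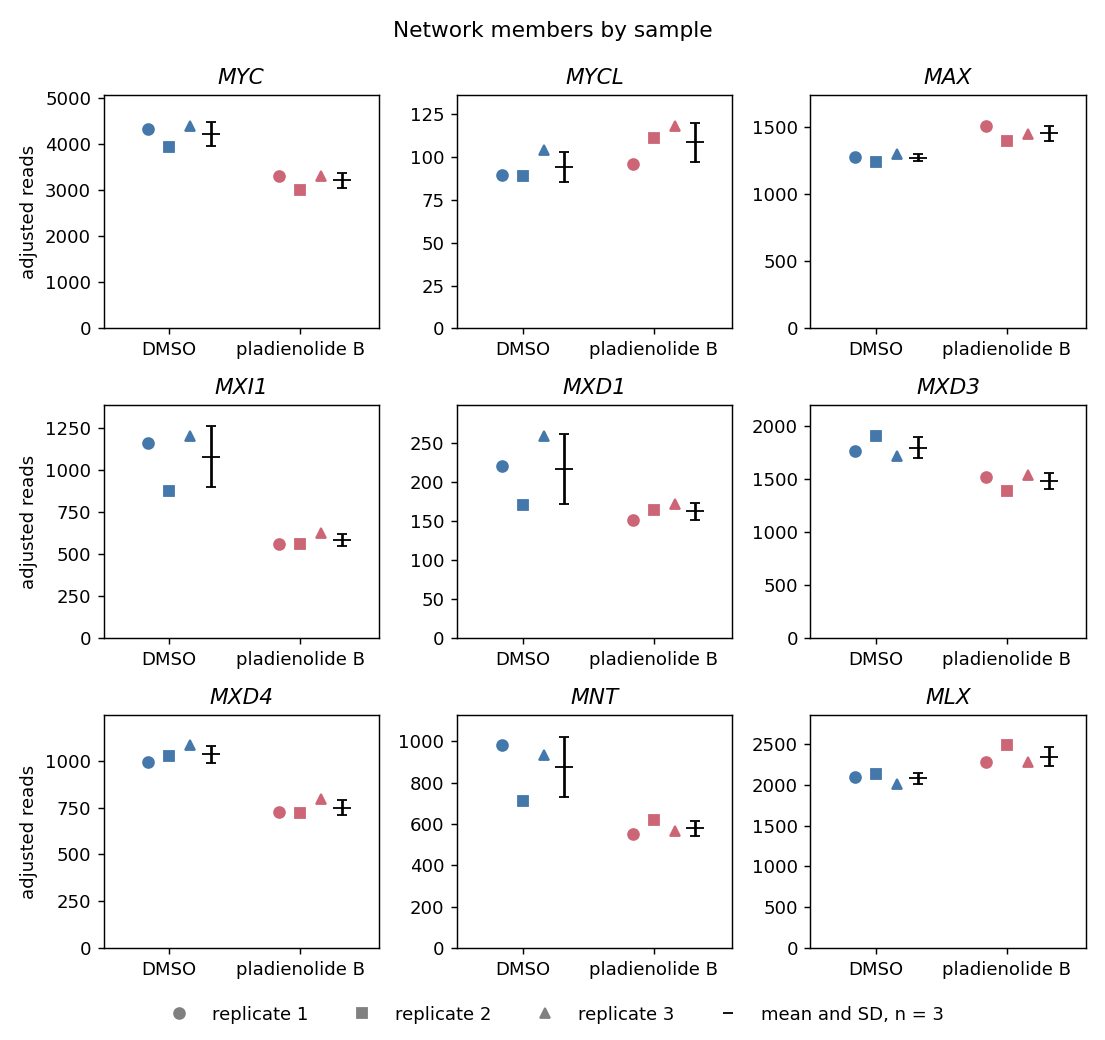
Adjusted reads (y axis, from 0) of the 9 tested network members in the 3 DMSO and 3 pladienolide B samples, with the mean and SD of each group in black. MYC, MXI1, MXD3, MXD4 and MNT lie lower in every pladienolide B sample than in any DMSO sample, MAX and MLX lie higher, and MYCL and MXD1 overlap.

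MYC (chromosome 8, 127735434 to 127742951, GRCh38, plus strand, 3 exons) held 4320, 3923 and 4392 adjusted reads in the DMSO samples. In the pladienolide B samples it held 3304, 3008 and 3305. Every treated sample was below every control. The means were 4212 ± 252 and 3205 ± 171 (SD, n = 3), so that 76.1% of the DMSO level was left. The log2 fold change was -0.39 (SE 0.05, adjusted p = 9.4e-06), and it was -0.44 without DMSO sample 2, the lowest control. A change of this size was not rare, since 27.3% of the genes tested changed by more in either direction.

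The other genes of the MYC family had few reads. MYCL (chromosome 1, 39895428 to 39901917), a relative first found amplified in lung cancer, held 89.3, 88.7 and 104 adjusted reads in DMSO and 96.1, 111 and 118 in pladienolide B. The groups overlapped, and the log2 difference was 0.20 with a 95% interval from -0.12 to 0.52 (adjusted p = 0.286). MYCN (chromosome 2, 15940550 to 15947004), the neuroblastoma oncogene, had 1 read in DMSO sample 1 and 0 in the other 5 libraries. Both groups were below the floor of 3 reads, and no fold is given.

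MAX, a shared partner of the MYC and MXD proteins, held 1272, 1241 and 1298 adjusted reads in DMSO and 1508, 1398 and 1446 in pladienolide B. All treated samples were above all controls, with means of 1270 ± 28.5 and 1451 ± 55.2 (SD, n = 3). MAX changed by 0.19 on the log2 scale (SE 0.05, adjusted p = 0.00602), or 114% of the DMSO level. The gene lies on the minus strand of chromosome 14, 65006101 to 65102695, and shares 56550 bases with FNTB and 56555 with the readthrough gene CHURC1-FNTB on the opposite strand. Those genes went from 571 ± 60.5 to 476 ± 21.6 and from 742 ± 93.5 to 631 ± 36.5 (SD, n = 3), away from the direction of MAX. Use of strand in counting is not given in the sources used here, so reads in shared stretches cannot be assigned with certainty.

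Among the repressors, MXI1 (chromosome 10, 110207605 to 110287365) changed most. It held 1158, 872 and 1202 adjusted reads in DMSO and 558, 562 and 623 in pladienolide B. The lowest control, DMSO sample 2, still exceeded every treated sample. The means were 1077 ± 179 and 581 ± 36.8 (SD, n = 3), which left 53.9% of the DMSO level. The log2 fold change was -0.88 (SE 0.10, 95% interval -1.08 to -0.68, adjusted p = 1.05e-06), and only 5.79% of the genes tested changed by more. Without DMSO sample 2 it was -1.02.

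MNT (chromosome 17, 2384073 to 2401060), the MAX-bound repressor that most cell types express, held 981, 713 and 936 adjusted reads in DMSO and 552, 621 and 566 in pladienolide B. Again DMSO sample 2 was the lowest control, and the groups did not overlap. Its log2 fold change was -0.58 (SE 0.10, adjusted p = 8.64e-05), with 66.1% of the DMSO level left, and it was -0.73 without that sample.

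MXD4 (chromosome 4, 2247432 to 2262109), linked to differentiation and cell cycle exit, held 994, 1026 and 1083 adjusted reads in DMSO and 729, 722 and 795 in pladienolide B. The groups lay apart by more than either range, and the log2 fold change was -0.47 (SE 0.06, adjusted p = 1.07e-05), with 72.4% left. MXD3 (chromosome 5, 177305499 to 177312752), which unlike the other MXD genes is linked to proliferating cells, held 1765, 1914 and 1721 in DMSO and 1518, 1394 and 1542 in pladienolide B. All treated samples were lower, and the fall was the smallest of the 5 repressors, with a log2 fold change of -0.28 (SE 0.06, adjusted p = 0.000625) and 82.5% left. MXD3 shares 1451 bases with PRELID1 on the opposite strand, which held 4072 ± 267 and 4214 ± 76.0 (SD, n = 3).

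MXD1 (chromosome 2, 69915109 to 69942945), the founding MAX dimerization repressor, was the weakest call. It held 221, 170 and 260 adjusted reads in DMSO and 151, 164 and 172 in pladienolide B. DMSO sample 2 lay within the treated range. Its log2 fold change was -0.40 (SE 0.14, adjusted p = 0.026), and without that sample it was -0.56 (adjusted p = 0.000966). The call was lost without DMSO sample 1 (adjusted p = 0.0684), DMSO sample 3 (0.164), pladienolide B sample 1 (0.0907) or pladienolide B sample 2 (0.0589). MXD1 shares 10229 bases with ASPRV1 on the opposite strand, whose values went from 220 ± 16 to 140 ± 16.6 (SD, n = 3), and the part of such reads in the MXD1 values was not tested.

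MLX (chromosome 17, 42567100 to 42573203) held 2100, 2133 and 2007 adjusted reads in DMSO and 2277, 2484 and 2279 in pladienolide B. The treated samples were all above the controls, and pladienolide B sample 2 was the highest. MLX changed by 0.17 on the log2 scale (SE 0.05, adjusted p = 0.00843), or 113% of the DMSO level, and without that sample it was 0.13 (adjusted p = 0.0614). PSMC3IP, which overlaps MLX by 894 bases on the opposite strand, held 1400 ± 51.0 and 1385 ± 77.9 (SD, n = 3). The other genes that overlap a member, MYCNOS, MYCL-AS1, MIR4706, LOC100506321, MIR4800 and LOC105378480, averaged fewer than 3 adjusted reads in each group, and MYC and MNT overlap none.

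The remaining network genes are MLXIP, MLXIPL and MGA. MLXIP (MondoA), a glucose-sensing partner of MLX, held 1970, 1796 and 2040 adjusted reads in DMSO and 1657, 1698 and 1867 in pladienolide B. These groups overlapped, with a log2 fold change of -0.15 (SE 0.06, adjusted p = 0.0399). The call was lost in 9 of 16 alternatives, among them leaving out DMSO sample 1 (adjusted p = 0.11), DMSO sample 3 (0.176), pladienolide B sample 1 (0.171) or pladienolide B sample 2 (0.131). MLXIPL (ChREBP) was low, at 32.7 in DMSO and 42.6 in pladienolide B on average, and its groups did not overlap. Its log2 difference of 0.41 missed the threshold (adjusted p = 0.207), and was 0.16 without DMSO sample 2. MGA, a large MAX-bound repressor, averaged 591 and 602, a log2 difference of 0.02 (adjusted p = 0.84). The sign of the MGA difference turned without DMSO sample 2 (-0.016) or pladienolide B sample 2 (-0.055).

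**Figure D2:**
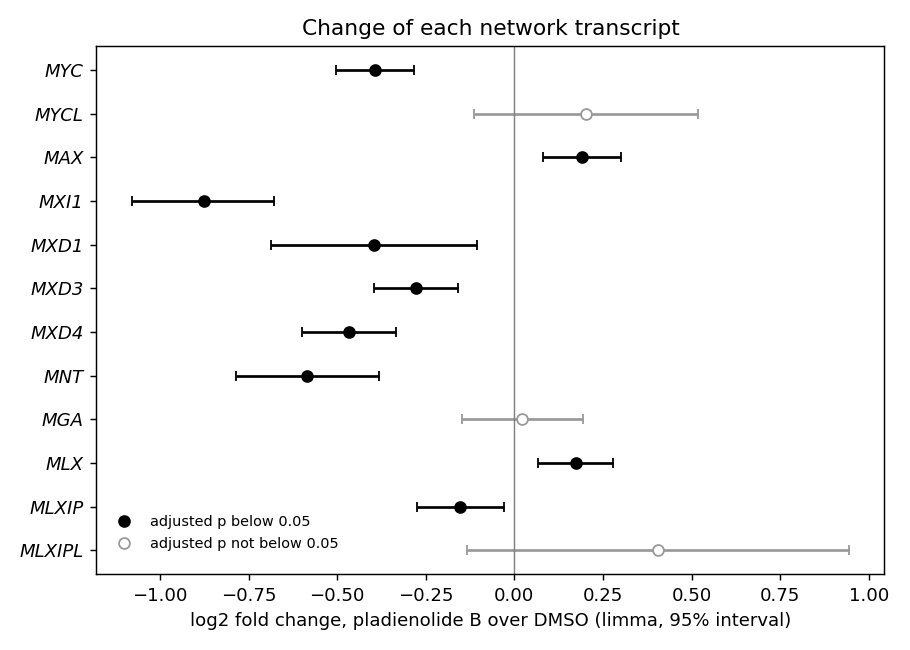
Log2 fold change (x axis, pladienolide B over DMSO, limma) of 12 network transcripts with the 95% interval as bars, black where the adjusted p is below 0.05. MXI1 lies lowest at -0.88, MAX and MLX lie to the right of 0, and the intervals of MYCL, MGA and MLXIPL include 0.

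To compare levels between genes, adjusted reads were divided by the exonic length of the canonical GENCODE transcript. In DMSO, MXD3 had the highest level per kilobase, 1687 ± 94.9 (SD, n = 3), ahead of MYC at 1132 ± 67.8, MLX at 881 ± 27.6 and MAX at 632 ± 14.2. MXI1 at 311 ± 51.6 and MXD4 at 267 ± 11.6 followed, with overlapping ranges, and then came MNT at 178 ± 29.2. MXD1 at 39.1 ± 8.07 and MYCL at 26.7 ± 2.49 stood far below. In pladienolide B the order was MXD3 at 1392 ± 74.8, MLX at 995 ± 50.5, MYC at 862 ± 46.0 and MAX at 722 ± 27.5 adjusted reads per kilobase, each without overlap with the next. MYC and MLX had thus changed places. MXD4 at 193 ± 10.4 now stood above MXI1 at 167 ± 10.6 without overlap, MNT followed at 118 ± 7.40, and MYCL at 30.8 ± 3.21 and MXD1 at 29.3 ± 1.92 overlapped. The order depends on the isoforms that the cells use, which a gene table does not show: without the division by length MYC ranked 1st and MXD3 ranked lower in both groups.

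**Figure D3:**
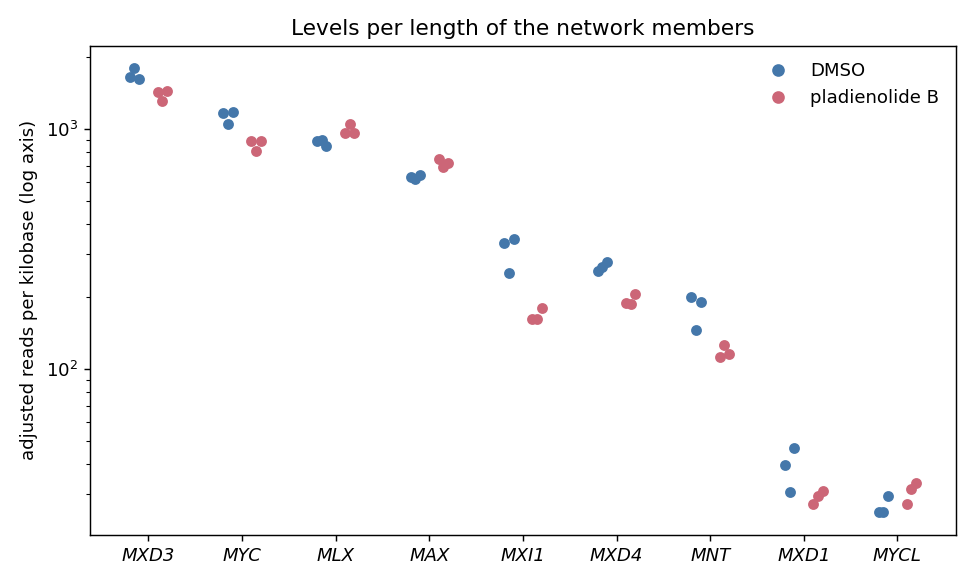
Adjusted reads per kilobase of the canonical transcript (y axis, log scale) of 9 network members, with 1 point per sample. MYC lies above MLX in the DMSO samples and below it in the pladienolide B samples.

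Because MYC and its rivals compete for MAX, their balance within each sample was also computed. MYC made up 31.6%, 29.6% and 32.0% of the summed level per kilobase of all 8 MAX partners among the members in DMSO, and 31.4%, 30.5% and 30.6% in pladienolide B. These ranges overlapped. The share of MXI1 was 9.09%, 7.05% and 9.40% in DMSO and 5.69%, 6.11% and 6.20% in pladienolide B, without overlap. MXD3 held the largest share in every sample, 43.8% to 50.3% of it in DMSO and 49.3% to 50.3% after treatment. That share depends on its short canonical length of 1067 bases, and without division by length MXD3 ranked 3rd, below MYC. Reads in the stretch that MXD3 shares with PRELID1 could also not be assigned with certainty. The level of MAX relative to that sum was 17.2%, 17.3% and 17.5% in DMSO and 26.5%, 26.2% and 24.8% in pladienolide B. The sum holds members that were already seen to fall, so this difference is a description and was not tested. Several of the repressors in the sum also pair with MLX, which this figure does not take into account.

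Ratios of adjusted reads within a sample need no scaling between libraries. The ratio of MYC to MXI1 was 3.73, 4.5 and 3.65 in DMSO and 5.92, 5.35 and 5.30 in pladienolide B, higher in every treated sample. The ratio of MYC to MAX was 3.40, 3.16 and 3.38 in DMSO and 2.19, 2.15 and 2.29 in pladienolide B, lower in every treated sample. The ratio of MYC to MLX went from 2.06, 1.84 and 2.19 to 1.45, 1.21 and 1.45, also without overlap. MYC to MNT, MXD4, MXD3 and MXD1 overlapped between the groups. In all, 7 ratios of MYC to another member were computed. They are given as a description, since the smallest p that a two-sided exact permutation test of 3 against 3 samples can give is 0.1. MYC against the sum of its 5 repressors was 0.836 to 0.844 in DMSO and 0.869 to 0.942 in the treated samples. This sum was not divided by length, and the MYC share of the level per kilobase given above overlapped between the groups.

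**Figure D4:**
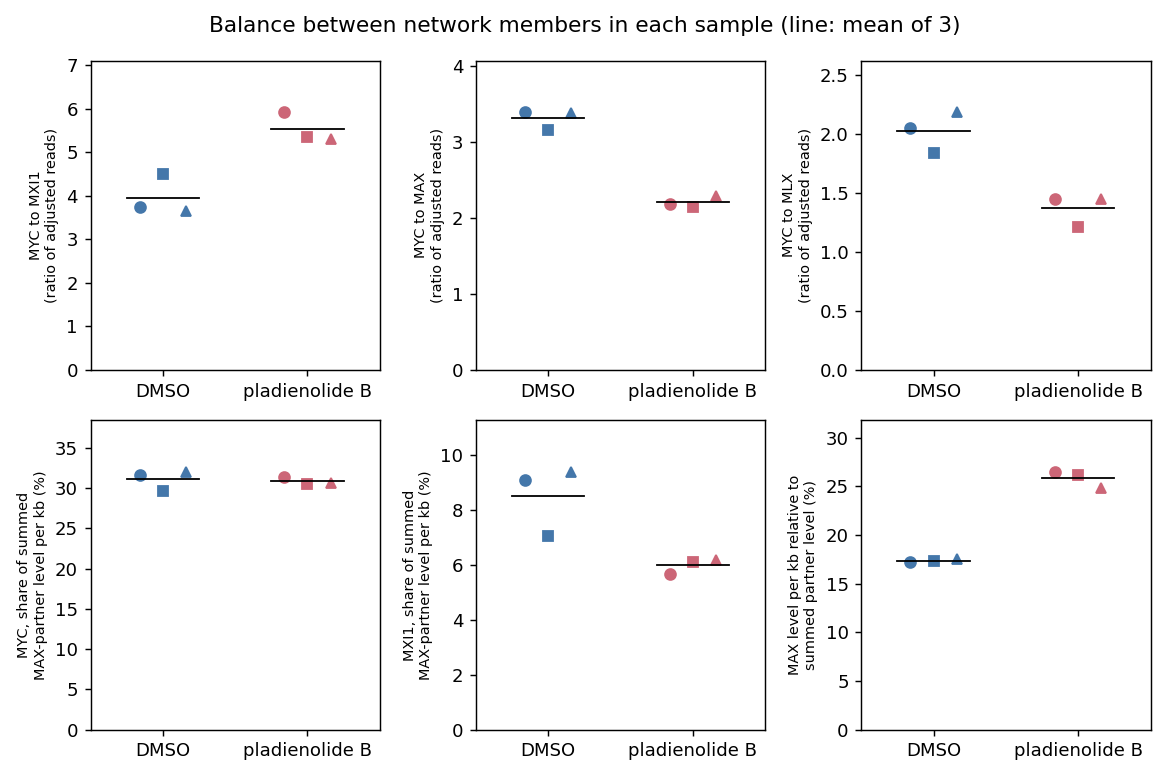
Balance between members in each sample, with 1 point per sample and a line at the mean of 3. The upper panels show ratios of adjusted reads, of which MYC to MXI1 is higher and MYC to MAX and to MLX lower in pladienolide B; the lower panels show shares of the summed partner level per kilobase, where MYC stays between 29.6% and 32.0%.

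By the distance between log2 profiles over the 6 samples, each set to its own DMSO mean, the 3 genes most like MYC among 12071 candidates were ZNF367, SMG6 and MBD5. Their root mean square distances were 0.0231, 0.0256 and 0.0268, and their levels in pladienolide B were 75.9%, 77.4% and 76.5% of DMSO. The 3 genes most like MXI1 were VLDLR, LOX and MEGF6, at distances of 0.0622, 0.0705 and 0.0721 and with 55.7%, 54.0% and 54.6% of the DMSO level left. All of these genes were picked by likeness over these same 6 samples, so their similar levels follow from the choice. For the same reason DMSO sample 2 was the lowest control for VLDLR, LOX and MEGF6, as it was for MXI1. The log2 fold changes of VLDLR and LOX were -0.83 and -0.88, and -0.97 and -1.02 without that sample.

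Factors that act on MYC itself were described next, each list by its counts. Over all genes tested 47.6% were called, 22.4% as higher and 25.2% as lower. Of 16 tested regulators of MYC transcription and mRNA, 3 rose and 2 fell, 31.2% called, and their median log2 fold change was 0.02. PVT1, the long noncoding RNA gene beside MYC, held 476, 412 and 446 adjusted reads in DMSO and 674, 611 and 685 in pladienolide B. It rose in every treated sample (log2 fold change 0.56, SE 0.08, adjusted p = 1.41e-05), opposite in direction to its neighbour. CTNNB1, the β-catenin of Wnt signalling, rose by 0.14 on the log2 scale. CTCF, the insulator protein, fell by 0.27 on the log2 scale, and IGF2BP2, a reader that stabilizes MYC mRNA, fell by 0.13. Leaving out 1 library could end 2 of these calls, that of CTNNB1 without DMSO sample 1 (adjusted p = 0.0728) and that of IGF2BP2 without DMSO sample 1 (0.0665), DMSO sample 3 (0.0833) or pladienolide B sample 2 (0.0725). Both calls were also lost in limma without a variance trend (adjusted p = 0.0811 for CTNNB1 and 0.0768 for IGF2BP2). With samples centred on the median, limma did not call IGF2BP2 either (0.123). The list as a whole had 9 calls without DMSO sample 2 and 3 without DMSO sample 1. CCAT1 had at most 1 read in any library.

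Of 15 tested regulators of MYC protein stability, 3 rose and 8 fell (73.3% called, against 47.6% of all genes, median -0.30). Rises were seen among factors that lead MYC to degradation and among those that spare it. FBXO32, a ubiquitin ligase subunit, went from 240 ± 31.9 to 462 ± 52.4 adjusted reads (SD, n = 3), a log2 fold change of 0.94 (adjusted p = 2.18e-06), and the nucleolar deubiquitinase USP36 went from 1073 ± 67.9 to 1739 ± 54.3, a change of 0.70 (adjusted p = 3.79e-08). The falls included the kinases PIM1, from 785 ± 134 to 490 ± 46.0, and AURKA, from 2767 ± 206 to 1749 ± 125, both known to protect MYC family proteins from degradation. Without DMSO sample 2 the log2 fold change of PIM1 was -0.80, against -0.67 with it, and that of FBXO32 was 0.83. FBXW7, the ligase subunit that recognizes phosphorylated MYC, rose by 0.33 on the log2 scale (adjusted p = 0.0145). The ligase genes STUB1 and SKP2 fell, with log2 fold changes of -0.551 and -0.302 (adjusted p = 3.37e-07 and 0.000568). Ligase genes of this list thus went in both directions. FBXW7, STUB1 and SKP2 lie outside the naming rule and were named after their values were seen. Protein was not measured.

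Of 17 tested MYC cofactors, 4 rose and 3 fell (41.2% called, near the 47.6% of all genes, median 0.01). TRRAP, the scaffold of histone acetyltransferase complexes, rose from 2405 ± 104 to 2741 ± 56.1 adjusted reads (SD, n = 3, adjusted p = 0.00289), and SMARCB1, a SWI/SNF subunit, rose from 2372 ± 130 to 2623 ± 119 (adjusted p = 0.027). ZBTB17 (MIZ1), through which MYC represses genes, fell by 0.53 on the log2 scale (SE 0.06, adjusted p = 3.75e-06), and the helicase RUVBL2 fell by 0.44 (SE 0.05, adjusted p = 8.34e-07). The SMARCB1 call was lost without DMSO sample 1 (adjusted p = 0.0851), DMSO sample 3 (0.127), pladienolide B sample 1 (0.0548) or pladienolide B sample 3 (0.139). The list had 4 calls, 1 of them a rise, without DMSO sample 1, pladienolide B sample 1 or pladienolide B sample 3, and 2 rises without DMSO sample 3.

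The corepressors that the MXD proteins and MNT bring in moved in both directions, with 3 rises and 6 falls among 14 tested (64.3% called, against 47.6% of all genes, median -0.09). SAP30 went from 461 ± 14.8 to 277 ± 10 adjusted reads (SD, n = 3) and SUDS3 from 1352 ± 12.8 to 826 ± 56.9, log2 fold changes of -0.73 and -0.71 (adjusted p = 1.44e-06 and 5.88e-08). Both are subunits of the SIN3 histone deacetylase complex. SAP18 and RBBP4, further subunits, rose by log2 fold changes of 0.40 and 0.22 (adjusted p = 8.77e-05 and 0.000473).

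Targets that MYC is known to induce did not move as 1 group. Of 38 tested genes of the nucleolus and ribosome assembly, 24 rose and 5 fell (76.3% called, against 47.6% of all genes), with a median log2 fold change of 0.23. Without DMSO sample 2, 28 rose and 5 fell. The largest rises were in RRP9, from 820 ± 79.9 to 1331 ± 24.9 adjusted reads (SD, n = 3, log2 fold change 0.70, adjusted p = 2.26e-07), and RRP12, from 1857 ± 87.5 to 3006 ± 36.6 (0.70, adjusted p = 4.53e-09), both factors of small subunit maturation or export. LAS1L and NOC4L, which also serve ribosome assembly, fell by 0.35 and 0.30 on the log2 scale. NCL, the abundant nucleolar protein nucleolin, rose by 0.15 on the log2 scale (adjusted p = 0.00911), a call lost without DMSO sample 3 (0.0645) or pladienolide B sample 1 (0.0505).

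Of 33 tested genes of nucleotide, polyamine, amino acid and glucose metabolism, 7 rose and 18 fell (75.8% called, against 47.6% of all genes, median -0.23), and without DMSO sample 2 the counts were 9 and 19. HK2, the first enzyme of glycolysis, held 3087, 2200 and 3096 adjusted reads in DMSO and 578, 650 and 685 in pladienolide B. Its log2 fold change was -2.12 (SE 0.10, adjusted p = 6.86e-11), larger in size than that of any network member, and -2.28 without DMSO sample 2. MTHFD1, of the folate cycle, went from 7344 ± 222 to 3532 ± 189 (SD, n = 3), a change of -1.06 (adjusted p = 2.48e-11). SLC3A2, a chain of amino acid transporters, rose by 0.50 on the log2 scale (adjusted p = 0.00079), and by 0.305 without DMSO sample 2, the lowest control. Its call was lost in limma without a variance trend (adjusted p = 0.0664). ODC1, the rate-limiting enzyme of polyamine synthesis, differed by 0.15 (adjusted p = 0.0703), which passed the threshold without DMSO sample 2 (0.25, adjusted p = 0.000104) or pladienolide B sample 3 (0.20, adjusted p = 0.047). CAD, of pyrimidine synthesis, differed by -0.10 (adjusted p = 0.0753), and by -0.15 without pladienolide B sample 3 (adjusted p = 0.0226).

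Of 15 tested cell cycle targets, 3 rose and 7 fell (66.7% called, against 47.6% of all genes, median -0.24). E2F2 went from 383 ± 26.9 to 193 ± 17.3 adjusted reads (SD, n = 3, log2 fold change -0.99, adjusted p = 5.05e-07), and CDCA7 from 1554 ± 5.05 to 873 ± 12.3 (-0.83, adjusted p = 1.53e-09). CCNE1 (cyclin E1) and the phosphatase CDC25A, which drive entry into S phase, rose by log2 fold changes of 0.43 and 0.39 (adjusted p = 1.16e-05 and 0.000157). CCND2, a classical MYC target, was low, at 13.5 and 11.4 adjusted reads on average, a log2 difference of -0.24 (adjusted p = 0.632), or -0.115 without DMSO sample 2. ID2 was below the filter.

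Targets that MYC is known to repress split as well, with 4 rises and 6 falls among 12 tested (83.3% called, against 47.6% of all genes, median -0.15). CDKN1A, the cell cycle inhibitor p21, held 987, 845 and 866 adjusted reads in DMSO and 2054, 2088 and 1865 in pladienolide B. It rose in every treated sample, by 1.16 on the log2 scale (SE 0.07, adjusted p = 4.5e-10). CLU rose by 0.42 (adjusted p = 0.000814). CDKN2B, another inhibitor of the cell cycle, fell by 0.54 on the log2 scale (adjusted p = 0.000504). NDRG1 held 18795, 12195 and 20189 in DMSO and 6855, 7492 and 7767 in pladienolide B. Its log2 fold change was -1.18 (SE 0.12, adjusted p = 4.96e-07), and -1.40 without DMSO sample 2. GADD45G had at most 1 read in any library.

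Of 8 tested targets of the MLX dimers, 2 rose and 2 fell (50% called, near the 47.6% of all genes, median -0.18). TXNIP and ARRDC4, the arrestin-like genes that report MondoA activity, differed by -0.24 (SE 0.13, adjusted p = 0.13) and -0.13 (SE 0.17, adjusted p = 0.553). TXNIP passed the threshold without DMSO sample 2 (-0.33, adjusted p = 0.0427). The lipid synthesis genes divided. ACACA, acetyl-CoA carboxylase, went from 2715 ± 56.1 to 1249 ± 118 adjusted reads (SD, n = 3, log2 fold change -1.12, adjusted p = 2.47e-10), and FASN, which also stands in the metabolic list, fell by 0.45 on the log2 scale (adjusted p = 2.91e-06). ELOVL6 and ACLY rose by log2 fold changes of 0.21 and 0.11 (adjusted p = 0.00918 and 0.0374). The ELOVL6 call was lost without DMSO sample 1 (adjusted p = 0.0622), and the ACLY call without DMSO sample 1 (0.054), DMSO sample 3 (0.0918), pladienolide B sample 2 (0.0847) or pladienolide B sample 3 (0.179). Without DMSO sample 1 the list had 2 calls.

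Factors outside the network that bind E-boxes or like sites were listed beside it. Of 13 tested, 3 rose and 5 fell (61.5% called, against 47.6% of all genes, median -0.05). HIF1A, the hypoxia factor whose core site overlaps the E-box, held 3770, 5462 and 3499 adjusted reads in DMSO and 7553, 7469 and 7099 in pladienolide B. DMSO sample 2 was the highest control for HIF1A, where it was the lowest for MXI1, MNT, NDRG1 and HK2, and the part of this in those results was not tested. The log2 fold change of HIF1A was 0.82 (SE 0.10, adjusted p = 6.33e-06), and 1.02 without that sample. BHLHE41 rose from 59.7 ± 8.12 to 102 ± 11.8 (SD, n = 3), whereas its relative BHLHE40, a repressor of clock genes, fell from 7322 ± 475 to 3666 ± 316 (adjusted p = 8.51e-10). SREBF1, the lipid synthesis factor, fell by 0.57 on the log2 scale (adjusted p = 9.49e-07). The list had 5 calls without DMSO sample 1, DMSO sample 3 or pladienolide B sample 3.

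**Figure D5:**
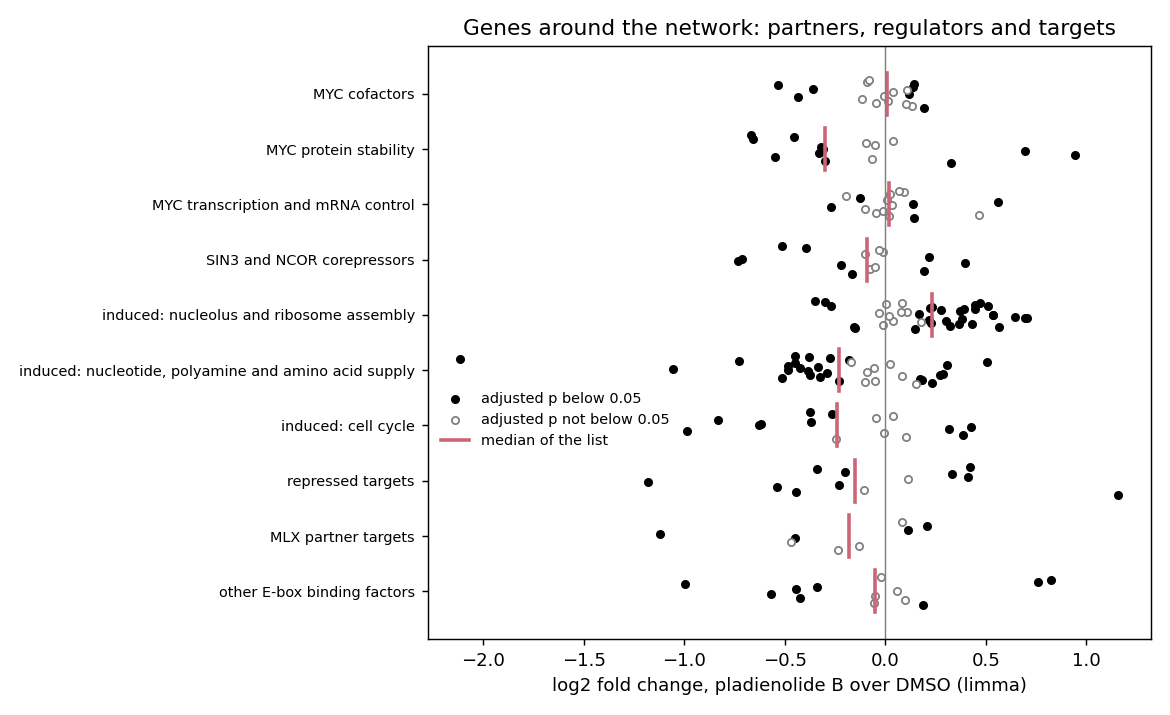
Log2 fold change (x axis, pladienolide B over DMSO, limma) of each tested gene in 10 lists around the network, filled where the adjusted p is below 0.05, with the median of each list as a line. The nucleolar list has a median of 0.23, the metabolic and cell cycle lists have medians of -0.23 and -0.24, and HK2 is the lowest point at -2.12.

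CACGTG was also counted in the promoter windows of these lists, with no test between them. It was present in 15 of 39 windows of the nucleolar genes (38.5%), 13 of 43 of the metabolic genes (30.2%), 5 of 16 of the cell cycle genes (31.2%) and 1 of 12 of the repressed targets (8.3%), beside 7.3% of all windows. The induced targets were listed as genes that MYC is known to induce, so a high share there could be foreseen. These counts come from the reference sequence and not from the samples. The shares were 18.2% for the MLX partner targets, 17.6% for the stability regulators, 15.8% for the cofactors, 11.8% for the regulators of MYC transcription and mRNA, 9.5% for the other E-box factors and 5.0% for the corepressors. ARRDC4 held 1 E-box, 210 bases before its start, and the 2 windows of TXNIP held none.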

How the data were processed

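PolyA RNA of OVCAR8 cells was sequenced in 3 DMSO and 3 pladienolide B samples. The submitters' notes name HISAT2, HTSeq 0.12.4, DESeq2 and hg19, whereas the study's methods name hg38. Deposited positions overlapped those of GRCh38.p14 for 99.8% of 35926 matched symbols and for all 10 members, so GRCh38 is used. The counting mode is not given in the sources used here.

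The per-sample values that the authors deposited are a signal, reads adjusted to a common library size. Inverting edgeR's quantile adjustment with a common dispersion of 0.0027 returned whole reads, to within 0.02, for 100% of 96432 values of at least 10. The deposited log2 fold change, p-value and q-value columns hold the authors' own comparison and were not used.

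limma 3.58.1 (variance trend, two-sided, Benjamini-Hochberg) was run on log2(value + 1), since the values are not counts. The pseudocount of 1 understates changes of low genes. Genes needed 10 adjusted reads in 3 samples and 15 in total (filterByExpr, edgeR 4.0.16), which left 16178. edgeR and DESeq2 1.42.0 on the recovered reads, other filters, scalings and pseudocounts, and leaving out each sample were alternatives. The method was tested on simulated data. Depth was 22621338 to 26130882 reads per sample.

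The members and gene lists were chosen with earlier results of these data known. The text names all members, MGA, MLXIP, MLXIPL, PVT1, TXNIP, ARRDC4, CDKN1A, NCL, ODC1, CAD and CCND2, the genes that overlap a member, the 3 profiles nearest to MYC and to the most changed member (mean of at least 100), and in each list the 2 largest called rises and falls without overlap and with a mean of at least 50. A gene that this rule names and a marker are not reported here. Promoters and positions are RefSeq (GRCh38.p14), and lengths are of canonical GENCODE transcripts. The labels do not say whether sample numbers pair the groups, and the main test used no pairing.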

Additional observations from a re-analysis of the deposited data

How the results depend on the processing

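Over 16 alternatives, the 9 tested members gave 144 values, of which 137 kept direction and side of the threshold, 7 missed the threshold and 0 turned. The 7 were 5 for MXD1 (adjusted p up to 0.164) and 2 for MLX (up to 0.0614), and limma without a variance trend ended both calls (0.101 and 0.0579). The 55 other named genes gave 880 values, of which 836 kept theirs, 35 lost and 7 gained a call and 2 turned, both MGA (-0.016 and -0.055, without DMSO replicate 2 or pladienolide B replicate 2). The call among the 3 other network proteins, MLXIP, was lost (0 calls) with no filter, without a trend, with samples centred on their median, with edgeR's RLE scaling and with DESeq2, and leaving out 1 sample gave 0 to 1. Without a trend, 4 MYC cofactors and 2 MLX partner targets were called. The calls of NCL, SMARCB1, ELOVL6 and ACLY were also lost in limma without a trend (adjusted p = 0.0764, 0.118, 0.0839 and 0.14). Leaving out 1 sample gave 4 to 7 and 2 to 5 for those lists, 3 to 9 for the regulators of MYC transcription and mRNA, 5 to 8 for the other E-box factors and 6 to 8 for the members. Not dividing by length moved MYC to rank 1 and MXD3 to rank 3 of the members in both groups. Centring on the median put 55.9% of the calls among all genes as higher, against 47.0%. The cause of these changes was not tested.

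The labels do not say whether same-numbered samples were handled together. Deviations of same-numbered samples correlated at -0.018, -0.017 and 0.003, and those of differently numbered samples at -0.035 to 0.048. With so few samples these values cannot decide whether the samples were paired. With a replicate block, limma called 3440 genes as higher and 3909 as lower, against 3618 and 4077, and no member lost or gained a call. Of the other named genes, ACLY lost its call with the block (adjusted p = 0.0688) and ODC1 gained one (0.0402), the cofactors went from 7 calls to 5, and edgeR with the block gave 0.0591 and 0.0319 for the same genes. MYCN, with 1 read in DMSO sample 1 and 0 in the other libraries, could not be compared.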
